A study of Mus musculus with 8 samples.

Results

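Type I hair shaft keratins are the acidic keratins of the hair fibre, and 8 of their genes were followed in mouse skin: Krt31, Krt32, Krt33a, Krt33b, Krt34, Krt35, Krt36 and Krt40. They were chosen by gene name, through the RefSeq accession of each probe, out of 20128 genes with a named probe. The 8 genes had 10 probes, since Krt36 and Krt40 had 2 each, and all 10 passed the filter on dim probes. RNA came from 8 skin samples of C57BL/6N mice, each on 1 single-colour Agilent array: 2 samples of hair loss skin and 4 of normal skin from Cchcr1 mutants, and 2 of normal skin from wild type mice. The mutation was made by CRISPR/Cas9 genome editing, per the series title, in a model of the patchy hair loss of alopecia areata. The exact allele, the age and sex of the mice and the stage of the hair cycle are not in the labels used here. Sample titles begin with Mutant097, Mutant113 or Wild001. Each mutant number has 1 hair loss sample and 2 normal skin samples, and both wild type samples carry 1 number. Whether a number stands for an animal is not stated, so p-values measure only the spread between these samples, which may be technical.

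Hair keratins form the intermediate filaments of the hair shaft, in which each type I (acidic) keratin pairs with a type II (basic) keratin. They are made in the follicle during its growth phase, anagen, and are switched on in sequence as matrix cells move up and differentiate. Krt35 comes on early, in the upper matrix, precortex and cuticle; Krt31, Krt33a, Krt33b and Krt34 are keratins of the cortex; Krt32 and Krt40 are keratins of the cuticle, the outer scale layer of the shaft. The RefSeq gene table places Krt33a, Krt33b, Krt34, Krt31, Krt32, Krt35 and Krt36 next to each other on chromosome 11 with 0 other genes between them. Krt40 lies on the same chromosome, beside Krt39 and 43 table entries away from Krt33a.

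Levels are log2 intensities relative to the 75th percentile of the array, so that 0 is the level of that percentile. A probe counted as detected when Feature Extraction marked it well above background. The percentile ran from 83.1 to 211 intensity units, and 25421 to 30205 probes per array were detected. The keratinocyte markers of the epidermis were detected in all 8 samples (7 of 7 genes). All arrays lay on 1 slide; hair loss skin of both numbers and normal skin of Mutant097 shared the first row, and the rest the second. In whole skin, fewer cells of a type and less RNA per cell cannot be told apart.

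**Figure D1:**
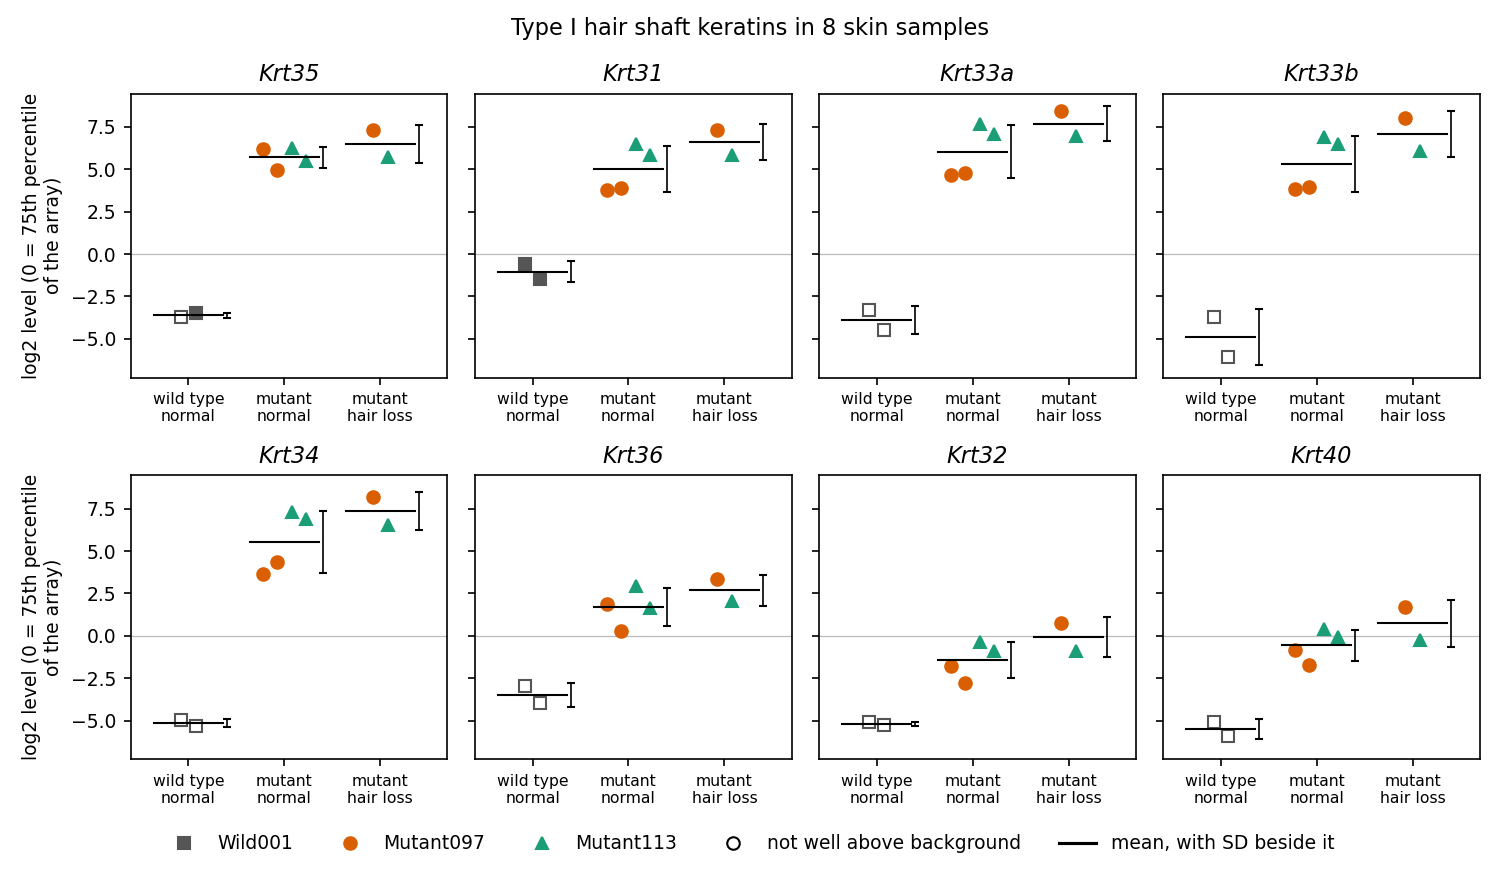
Log2 level of each type I hair shaft keratin (vertical axis, relative to the 75th percentile of the array) in the 8 samples by group; symbols mark the title number, open symbols arrays on which the probe was not well above background, lines the group mean and bars its SD. All mutant samples lie above both wild type samples for each of the 8 genes, and the normal skin of Mutant097 lies below that of Mutant113 for 6 of them.

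Normal skin of the mutants had far more type I hair keratin RNA than wild type skin. In this comparison 7 of the 8 genes were higher at an adjusted p under 0.05 (limma, Benjamini-Hochberg over 30417 probes), where 0.575% of all probes were called higher. The 4 mutant arrays lay above both wild type arrays for 8 of 8 genes, against 13.6% of all probes. For 6 of the 8 genes neither wild type array detected the probe, so these passed the filter only through mutant samples. The counts are therefore no test against the shares of all probes. The median difference was 7.69 on the log2 scale (7.37 with dim genes at their lower bound), beside -0.04 over all probes. Both sides of this comparison were skin labelled normal.

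Krt35, the early keratin, read -3.72 and -3.50 in wild type skin, 6.17 and 4.96 in normal skin of Mutant097, 6.28 and 5.48 in normal skin of Mutant113, and 7.31 and 5.71 in hair loss skin of Mutant097 and Mutant113. The 6 mutant samples were all high and spanned a smaller range than for any cortex keratin, and only 1 of 2 wild type arrays detected the probe. The difference between mutant normal and wild type skin was 9.33 ± 0.51 (SE), with an adjusted p of 0.00371 (limma), the smallest among the 8 genes.

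The cortex keratins were high in every mutant sample too, but spread more widely. Krt31 read -0.61 and -1.48 in wild type skin, 3.79 and 3.93 in normal skin of Mutant097, 6.51 and 5.82 in normal skin of Mutant113, and 7.34 and 5.85 in hair loss skin. It was the only 1 of the 8 genes detected on both wild type arrays. Its group means were -1.04 ± 0.62 (SD, n = 2) in wild type and 5.01 ± 1.36 (SD, n = 4) in mutant normal skin, a 66.5-fold difference (log2 6.06 ± 0.84 SE, adjusted p = 0.0273, limma).

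Krt33a read -3.33 and -4.47 in wild type skin, neither above background. In normal skin it read 4.65 and 4.78 in Mutant097 and 7.66 and 7.09 in Mutant113, and in hair loss skin 8.41 and 6.98. The mutant samples again split by title number in normal skin, with Mutant097 the lower. Since wild type gave only a bound, mutant normal skin was at least 685-fold higher (adjusted p = 0.0107, limma). Such a bound sets the bright group's mean against the lowest level of any detected probe on each wild type array, or the probe's own reading where that was higher. A probe can read above that level and still be undetected, as Krt36 did on the first wild type array (-2.97 against -3.00). These bounds are therefore approximate.

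Krt33b read -3.74 and -6.05 in wild type skin, below detection, then 3.83 and 3.96 in normal skin of Mutant097 and 6.92 and 6.50 in that of Mutant113, and 8.02 and 6.10 in hair loss skin. Its pattern over the samples was that of Krt33a, and mutant normal skin was at least 409-fold higher than wild type (adjusted p = 0.0127, limma). Krt34 read -4.99 and -5.33 in wild type skin, below detection, then 3.65 and 4.33 in normal skin of Mutant097, 7.28 and 6.87 in that of Mutant113, and 8.16 and 6.57 in hair loss skin. Mutant normal skin was at least 480-fold higher than wild type (adjusted p = 0.0109, limma). Krt31, Krt33a, Krt33b and Krt34 have similar sequences, and whether their probes also catch RNA of each other was not tested.

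The cuticle keratins and Krt36 were below detection in wild type, so their differences are bounds. Krt32 read -5.10 and -5.28 in wild type skin, -1.77 and -2.79 in normal skin of Mutant097, -0.35 and -0.91 in that of Mutant113, and 0.78 and -0.91 in hair loss skin. It was detected in 6 of 6 mutant samples and in neither wild type sample, but its difference in normal skin, 3.74 ± 0.70 (SE), missed the threshold (adjusted p = 0.0709, limma; at least 3.78-fold).

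Krt40, the keratin of the upper cuticle, read -5.10 and -5.91 in wild type skin, -0.82 and -1.71 in normal skin of Mutant097, 0.39 and -0.09 in that of Mutant113, and 1.72 and -0.25 in hair loss skin. Wild type was below detection, and mutant normal skin was at least 7.05-fold higher (adjusted p = 0.0286, limma). A second Krt40 probe, detected on 4 arrays, was not called: its difference was 1.20, its groups overlapped and its adjusted p was 0.398 (limma). It was dimmer, with a mean of -4.06 in mutant normal skin, where 2 of 4 arrays detected it, and below detection in wild type. Its difference is therefore not a measured size.

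Krt36 read -2.97 and -3.97 in wild type skin, 1.87 and 0.30 in normal skin of Mutant097, 2.97 and 1.65 in that of Mutant113, and 3.33 and 2.05 in hair loss skin. Mutant normal skin was at least 33.2-fold above wild type, where the probe was below detection (adjusted p = 0.0261, limma). A second Krt36 probe differed by 4.41 in the same direction and just missed the threshold (adjusted p = 0.0503, limma).

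Only 2 wild type samples, of 1 title number, stood behind these calls. Leaving out the first left 1 call among the 8 genes (10 among all 30417 probes), leaving out the second left 0 (0 among all), and leaving out the fourth mutant normal sample left 4 (75 among all). With 1 mean per title number and group, wild type has no replicate. The differences are then the same by construction, such as 9.33 for Krt35, since each mutant number has 2 normal skin samples. Another background correction (normexp) left 5 calls (0.473% of all probes in either direction, against 0.694% in the main fit). It gave smaller differences, such as 6.49 for Krt34, 1.26 for Krt40 and 0.69 for Krt32, so the bounds above hold for the processed signal only. Krt33a was 132-fold higher with normexp and Krt36 6.27-fold, both below those bounds.

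Hair loss skin was also far above wild type. All 8 genes were higher (limma, adjusted p 0.00596 to 0.0342), where 0.993% of all probes were called higher, and all 8 had no overlap between the groups, against 24.8% of all probes. The median log2 difference was 8.88, with dim genes at their bound. Of the 6 genes below detection in wild type, the bounds ran from at least 9.90-fold for Krt32 to at least 2150-fold for Krt33a. The second Krt40 probe was not called here (2.38, adjusted p = 0.123, limma), and the second Krt36 probe was (5.35, adjusted p = 0.0338, limma). Krt35, detected on 1 of 2 wild type arrays, read 1116-fold higher with the processed signal and 176-fold with normexp. Normexp gave 419-fold for Krt33a and 2.59-fold for Krt32, so these sizes depend on the background correction. It left 6 calls, and 1.73% of all probes were called in either direction, against 1.42% in the main fit. This comparison shares its wild type arrays, and the limit set by the filter, with the one of normal skin. Without the first hair loss sample 1 member was called (2 among all probes), and without the first wild type sample 1 (10 among all). Without the second wild type sample, or with 1 mean per title number, 0 members and 0 of all probes were called.

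The upstream windows of these genes were read because the members were high in the same samples. The RefSeq promoter table (GRCm38.p6) held 6 of the 8 genes, all but Krt33a and Krt35, and the 250 bases before each start were searched on both strands. These 4 windows are shown as 3 cortex keratins with the same motifs and 1 neighbour, Krt36, without their exact letters. Capitals mark CTTTGAA (the TCF and LEF type), TTTATG (the HOXC13 type) and TATAAA (the core promoter element named after its letters), letters chosen after the sequences had been read. Krt34 has another CTTTGAA between its TTTATG and its TATAAA. Krt36 holds the near match tatataa, which was not searched for.
Krt31, chr11:100050552-100050801, minus strand: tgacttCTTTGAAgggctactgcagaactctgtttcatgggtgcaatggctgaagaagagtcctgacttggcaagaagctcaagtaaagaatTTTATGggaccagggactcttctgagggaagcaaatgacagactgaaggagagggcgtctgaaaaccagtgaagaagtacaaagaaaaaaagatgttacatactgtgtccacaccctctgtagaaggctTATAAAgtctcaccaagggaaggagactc
Krt33b, chr11:100029869-100030118, minus strand: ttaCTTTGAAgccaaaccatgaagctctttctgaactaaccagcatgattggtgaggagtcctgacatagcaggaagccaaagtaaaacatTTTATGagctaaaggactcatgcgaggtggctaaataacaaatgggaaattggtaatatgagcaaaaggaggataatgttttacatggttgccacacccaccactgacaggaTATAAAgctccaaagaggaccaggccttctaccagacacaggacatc
Krt34, chr11:100041555-100041804, minus strand: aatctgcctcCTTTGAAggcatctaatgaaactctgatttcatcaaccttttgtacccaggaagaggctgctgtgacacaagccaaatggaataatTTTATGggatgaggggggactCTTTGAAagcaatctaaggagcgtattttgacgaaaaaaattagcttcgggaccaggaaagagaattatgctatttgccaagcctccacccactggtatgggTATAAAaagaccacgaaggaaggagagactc
Krt36, chr11:100105627-100105876, minus strand: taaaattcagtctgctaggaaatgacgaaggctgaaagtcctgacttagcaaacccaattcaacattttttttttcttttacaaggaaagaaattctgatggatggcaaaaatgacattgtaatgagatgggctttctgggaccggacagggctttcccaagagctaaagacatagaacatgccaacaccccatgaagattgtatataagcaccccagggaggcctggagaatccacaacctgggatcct

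CTTTGAA stood in 4 of 6 member windows (Krt31, Krt32, Krt33b and Krt34) and in 4.46% of 32851 windows of all genes. In these 4 it began 240 to 247 bases before the start, and Krt34 had another at 133. TTTATG stood in 5 of 6 windows, against 10.8% of all: at 154 to 159 bases before the start in the same 4 genes, and on the opposite strand in Krt40. TATAAA stood in 5 of 6, against 12.4%, beginning 29 to 47 bases before the start, with an additional copy at 88 in Krt32. Of the 4 inner root sheath keratins, which line the channel around the shaft, 0 had CTTTGAA, 1 had TTTATG and 4 had TATAAA. Among 11 windows of type I keratins of other epithelia the counts were 0, 6 and 3, and among 2 of type II hair keratins 0, 2 and 1. Because the letters were chosen from these same windows, the member counts are no test against the shares of all windows. Krt31, Krt32, Krt33b and Krt34 are also neighbours with matches at similar places, so they may not count as separate cases. These matches are letters in a window and do not show that a factor binds there.

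Hair loss and normal skin of the mutants were compared over the groups and within each title number. Over the groups, 0 of 8 genes were called, as for all probes (0%), and 0 members had an unadjusted p under 0.05 (limma; lowest 0.0841), where 1.79% of probes were higher at that level. All 8 differences were above 0, from 0.79 for Krt35 to 1.83 for Krt34, with a median of 1.49, and the groups overlapped for all 8, where 5.73% of probes had every hair loss array higher. Adjusted p-values were 0.988 to 0.999. Without the first hair loss sample, the difference of Krt35 was -0.01 and that of Krt34 1.03.

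**Figure D2:**
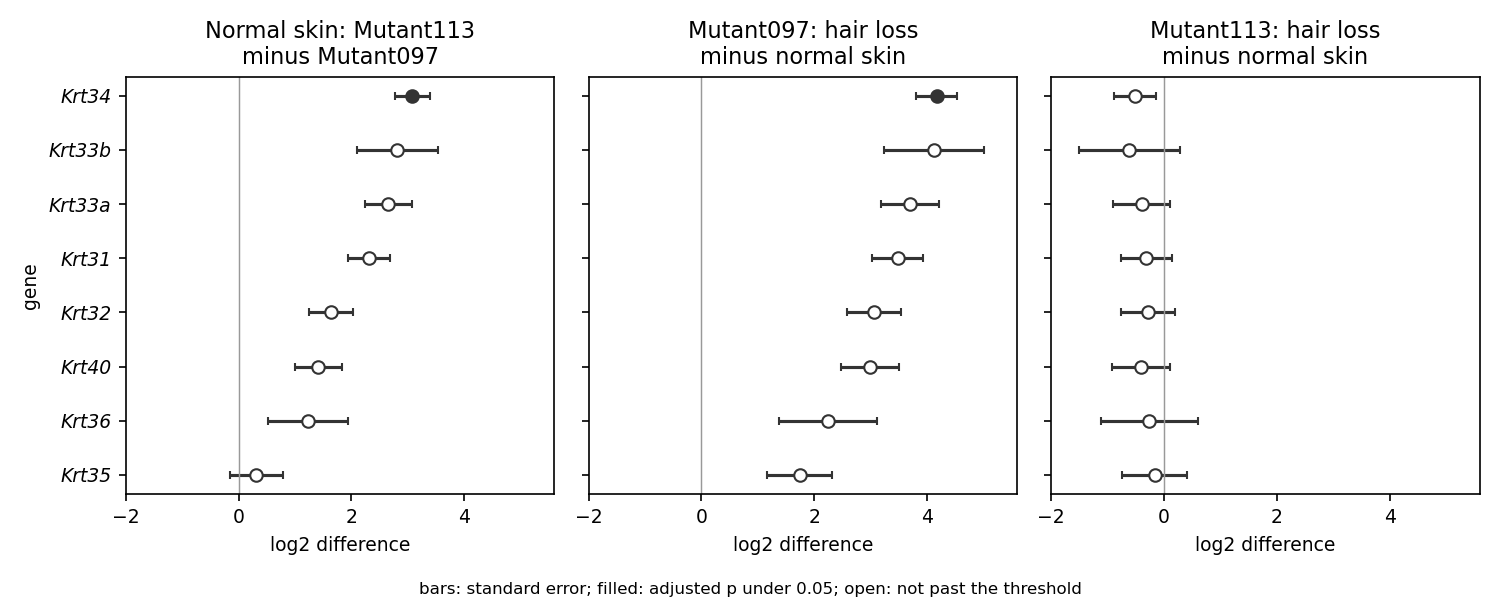
Log2 difference of each gene (horizontal axis) with its standard error in normal skin of Mutant113 against Mutant097 (left) and in hair loss against normal skin within Mutant097 (middle) and Mutant113 (right); filled points passed an adjusted p under 0.05. Differences within Mutant097 run from 1.75 to 4.17 and those within Mutant113 from -0.61 to -0.17.

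Within Mutant097, the hair loss sample had more of every member than both normal skin samples, as did 34.7% of all probes. Krt34 was 18.0-fold higher (log2 4.17 ± 0.37 SE, adjusted p = 0.0276, limma) and was the only 1 of 8 called, where 0.569% of probes were called higher. Cortex keratins had the larger differences: 4.13 for Krt33b (adjusted p = 0.176), 3.70 for Krt33a (0.0645) and 3.48 for Krt31 (0.0542). The cuticle keratins came next, at 3.06 for Krt32 and 2.98 for Krt40, then Krt36 at 2.25, and Krt35 was lowest at 1.75 (adjusted p = 0.311, limma). There was 1 hair loss sample here, so its spread was taken to be that of the other groups.

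Within Mutant113 no member had a higher level in hair loss skin than the mean of normal skin. All 8 differences were below 0, between -0.61 for Krt33b and -0.17 for Krt35, with a median of -0.35 and 0 calls (0.00329% of probes were called lower; adjusted p = 0.9998 for each member, limma). The hair loss sample lay below both normal samples for 5 of 8 genes, against 33% of all probes. Tested directly, the lesion difference of Mutant113 minus that of Mutant097 was below 0 for all 8, from -1.91 for Krt35 to -4.74 for Krt33b. Of these 0 were called, as for all probes (0%); Krt34 came nearest at -4.68 ± 0.52 (SE, adjusted p = 0.0720, limma), and normexp correction called 5, where it called 0.944% of all probes. Each title number had 1 hair loss sample, so this test has no hair loss replicate within a number.

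The title numbers also differed in normal skin. In hair loss skin, the sample of Mutant113 was the lower of the pair for all 8 genes, by 1.28 to 1.97, while in normal skin Mutant113 had the higher mean for all 8. There Krt34 was 8.47-fold higher in Mutant113 than in Mutant097 (log2 3.08 ± 0.30 SE, adjusted p = 0.0435, limma), 1 call of 8 where 0.158% of probes were called higher. For 6 of 8 genes the samples did not overlap between the numbers, as for 24.1% of probes. Krt35 and Krt36 overlapped.

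The other cortex keratins differed by 2.82 (Krt33b), 2.66 (Krt33a) and 2.31 (Krt31) in normal skin, with adjusted p-values of 0.194, 0.0851 and 0.0897 (limma). Krt32 differed by 1.65, Krt40 by 1.41 and Krt36 by 1.23. Krt35 differed by 0.32 ± 0.47 (SE, adjusted p = 0.788, limma), and its sign turned without the second or the third mutant normal sample. The call of Krt34 was lost without any 1 of the 4 normal samples or either wild type sample, and without a wild type sample Krt33b was called in its place. Quantile normalization called 2 genes (0.48% of all probes in either direction) and normexp 4 (1.53%), where the main fit called 0.266% of all probes.

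Each title number was also set against wild type, sharing the wild type arrays and the limit set by the filter. In Mutant097 normal skin 7 of 8 genes were called higher (0.782% of probes), all but Krt36 (adjusted p = 0.0615, limma), and in Mutant113 8 of 8 (1.77%). Krt35 was 9.18 above wild type in Mutant097 and 9.49 in Mutant113. Krt34 was at least 165-fold above wild type in Mutant097 and at least 1398-fold in Mutant113.

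A comparison free of array scaling came from the log2 ratio of each gene to Krt35 on the same array, a reference chosen after it had been seen to differ least between the title numbers, so the ratios in part restate that. From Mutant097 to Mutant113 normal skin the ratio was higher by 2.77 for Krt34, 2.50 for Krt33b, 2.34 for Krt33a and 1.99 for Krt31. It was higher by less for Krt32 (1.33), Krt40 (1.09) and Krt36 (0.91). The 2 samples of each number did not overlap for any of the 7 genes, as for 3.81% of all probes set against Krt35. That share is no measure of chance. Krt35 itself read 6.17 and 4.96 in Mutant097 and 6.28 and 5.48 in Mutant113, so a probe of constant level overlaps through Krt35 alone. The 7 ratios also share this 1 reference. With 2 samples against 2, an exact permutation p cannot fall below 0.333, the p of all 7 (two-sided). For Krt34 the ratio was -2.52 and -0.63 in normal skin of Mutant097, 1.0 and 1.39 in that of Mutant113, and 0.85 in both hair loss samples. Both hair loss samples lay nearer to the normal skin of Mutant113 than to that of Mutant097.

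**Figure D3:**
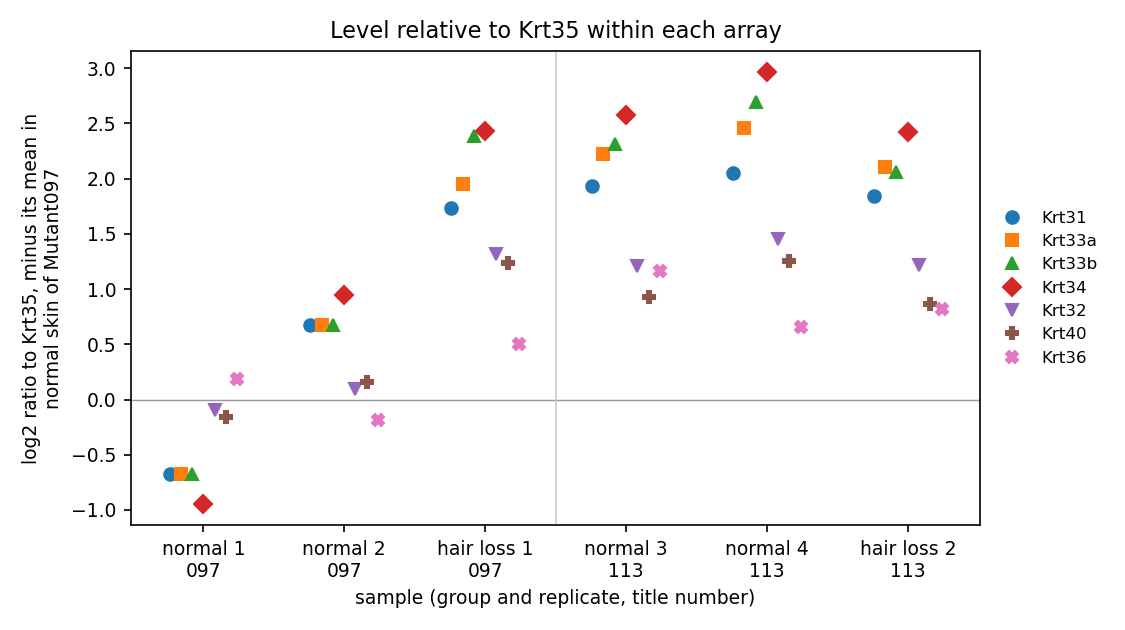
Log2 ratio of each gene to Krt35 on the same array, minus its mean in normal skin of Mutant097 (vertical axis), for the 6 mutant samples, with Mutant097 left and Mutant113 right of the line. The cortex keratins Krt31, Krt33a, Krt33b and Krt34 lie highest in hair loss skin of Mutant097 and in all samples of Mutant113, and Krt32, Krt36 and Krt40 lie lower there.

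Type II hair keratins, the pairing partners, had differences in the same directions. Of 7 listed, 5 were named on the array, and 3 of these were called higher in mutant normal than in wild type skin (median log2 difference 6.31, or 5.26 with dim genes at their bound). The share of all probes called higher there was 0.575%, but 3 of the 5 passed the filter only through mutant samples. Krt86, detected on 1 of 2 wild type arrays, was 8.77 higher (adjusted p = 0.0247), Krt87 at least 68.2-fold (0.0249) and Krt81 4.44 (0.127, limma). Between the title numbers in normal skin 2 of 5 were called, Krt81 at 3.15 (adjusted p = 0.0229) and Krt87 at 3.28 (0.0435, limma), and the median was 3.15, beside 1.98 for the type I members. Within Mutant097 all 5 were above 0 in hair loss skin and 3 were called, where 0.569% of probes were called higher. Within Mutant113 0 of 5 were above 0 and 0 were called.

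The 4 type I inner root sheath keratins were all called higher in mutant normal than in wild type skin, with a median of 8.62, or 7.58 with dim genes at their bound. Krt25 was 10.56 higher and Krt27 9.49, each detected on 1 of 2 wild type arrays, and Krt28 5.65. Between the title numbers 0 of these 4 were called, but all 4 were above 0, with a median of 1.43 beside 1.98 for the members. The 14 type I keratins of other epithelia, most of them outside the shaft, had 0 calls against wild type and a median of 0.59; Krt10 of the upper epidermis differed by 0.05, Krt17 by 0.80 and Krt15 by -0.18.

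**Figure D4:**
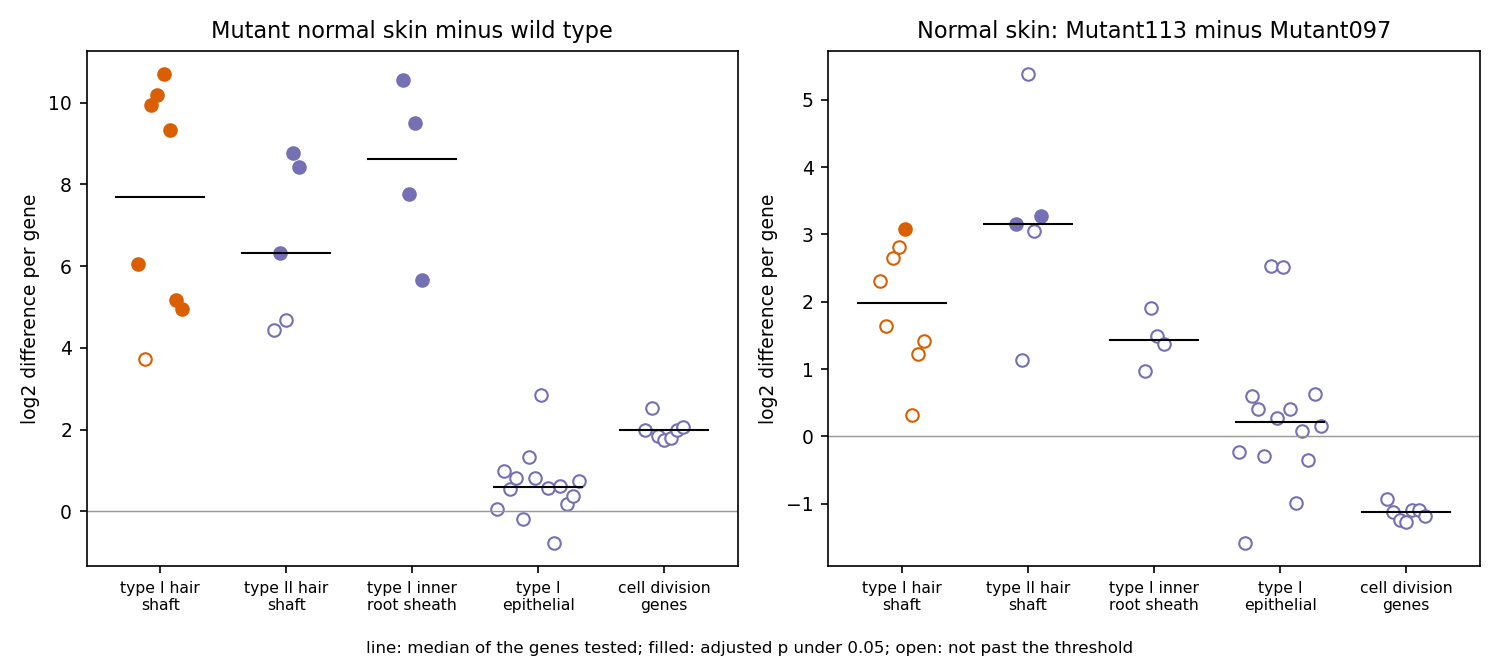
Log2 difference per gene (vertical axis) for mutant normal against wild type skin (left) and for Mutant113 against Mutant097 in normal skin (right), by keratin class and for cell division genes; lines are medians of the fitted differences, which are not measured sizes where wild type was below detection, and filled points passed an adjusted p under 0.05. Hair shaft and inner root sheath keratins are high on the left. On the right, both of these classes lie above 0 while cell division genes lie below it.

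Genes that mark dividing cells, such as those of the hair matrix, had a summed level above wild type in all mutant samples, and a lower one in normal skin of Mutant113 than of Mutant097. Their summed level was 5.91 to 8.68 in wild type, 31.3 to 51.7 in normal skin of Mutant097, 16.1 to 22.4 in that of Mutant113 and 27.4 to 42.2 in hair loss skin. Of 8 genes 7 were tested; 0 were called against wild type (median 2.00, all 7 above 0) and 0 between the numbers (median -1.13, all 7 below 0). The summed level of the 8 type I hair keratins was 0.637 to 1.13 in wild type, 111 to 142 in normal skin of Mutant097 and 449 to 658 in that of Mutant113. In normal skin, the title number with the higher keratin level had the lower level of division genes. The part of hair cycle stage in these differences was not tested.

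Regulators of hair shaft differentiation were followed too. Of 12 listed, 11 were tested; in mutant normal skin 9 of them lay above wild type, with a median of 0.99, and 1 was called, against 0.575% of all probes. It was Hoxc13 at 2.98 (adjusted p = 0.0475, limma), which, like Msx2, was named after its value was seen. Hoxc13 encodes a homeobox factor known to control hair keratin genes. Against wild type, hair loss skin had 2 calls of 11 (0.993% of probes), Hoxc13 at 3.63 and Msx2 at 3.34, with 10 of 11 above 0 and a median of 1.33. The most abundant of the list, Gata3, Dlx3 and Bmp4, differed by 0.46, -0.16 and -0.01 in mutant normal skin and were not called. Between the title numbers 0 were called, and Hoxc13 differed by 0.42.

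Summed levels of genes of other cell types differed between the groups too. Skeletal muscle genes (8 of 8 detected on every array) summed to 1086 to 1207 in wild type, 466 to 737 in normal skin of Mutant097, 1023 to 1171 in that of Mutant113 and 192 to 528 in hair loss skin. Fibroblast genes (5 of 5 detected on every array) summed to 1311 to 1866 in wild type, 1106 to 1293 and 466 to 581 in normal skin of Mutant097 and Mutant113, and 632 to 874 in hair loss skin. Both lists thus separated the title numbers in normal skin. So did leukocyte genes, at 68.0 to 97.7 in Mutant097 and 57.8 to 63.3 in Mutant113. The endothelial sum separated them too (13.3 to 19.9 and 10.2 to 10.5), but 3 of its 4 genes had a difference above 0 in Mutant113 (median 0.05). Division genes also separated the numbers. Epidermal, melanocyte, sebaceous and adipocyte sums overlapped. Of all probes, 24.1% were higher in both normal samples of Mutant113 than in both of Mutant097. Of the sums that separated the numbers, only that of muscle was higher in Mutant113. The share of probes lower in both samples of Mutant113 was not counted. Leukocyte genes (6 of 7 tested) summed to 111 to 147 in wild type, 57.8 to 97.7 in mutant normal and 64.8 to 70.5 in hair loss skin. Melanocyte genes summed to 28.3 to 32.0, 20.1 to 88.8 and 41.0 to 76.2, and 7 of 8 were above wild type in mutant normal skin (median 2.23, or 0.64 with dim genes at their bound; 0 called). Epidermal genes summed to 1292 to 1366, 1412 to 1758 and 1535 to 1815. The part of tissue make-up in the keratin differences was not tested. Title numbers also differed in sex-linked RNA: Xist was detected only in the 3 samples of Mutant113 (1.09 to 1.15) and the Y-linked Ddx3y only in the samples of Mutant097 and wild type. Among the mutant normal samples, sex-linked expression, slide row and title number cannot be told apart. Wild type skin shared the second slide row with normal skin of Mutant113, but its sex-linked RNA was like that of Mutant097.

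Of 14169 other genes, those most like the mean of the 8 members over the 8 arrays were Tchhl1 (Pearson r = 0.998), Krtap3-3 (0.998), Gprc5d (0.997), Krtap5-5 (0.997) and Krtap11-1 (0.997). Krtap genes encode keratin-associated proteins of the matrix between the keratin filaments, Tchhl1 a relative of trichohyalin and Gprc5d an orphan receptor. In all, 361 genes had r above 0.9, and all points share the gap between wild type and mutant arrays. Over the 6 mutant arrays alone r was 0.980, 0.975, 0.989, 0.972 and 0.980. Krtap3-3 read 2.97 and 3.29 in normal skin of Mutant097, 6.09 and 5.54 in that of Mutant113, and 6.90 and 5.31 in hair loss skin.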

How the data were processed

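Total RNA from 8 skin samples was labelled with Cy3 and hybridised to 1 array each, per the labels' protocols. The deposited scanner files hold an intensity per spot, which Agilent Feature Extraction 11.5.1.1 corrected for background, per the file headers. The authors' deposited table holds log2 values, and 55603 of 55603 probes lay within 0.01 of 1 constant per array from the log2 processed intensity; its column medians ran from -3.68 to -3.20.

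The log2 processed intensity was averaged over the spots of a probe, and the 75th percentile of each array was subtracted. Control spots and 118 to 210 marked spots per array were left out, and 78 probes without a value on every array were dropped. Probes detected on at least 2 of 8 arrays were tested (30417). Comparisons used limma 3.58.1 (R 4.3.3), two-sided, with Benjamini-Hochberg adjustment over all probes tested, first in a model of 3 groups and then in a model of group by title number. A gene was read from its probe with the highest mean. Gene names came from RefSeq accessions; probe and gene positions are not given, since the array design names mm9, and the coordinates of the 4 upstream windows are those of the RefSeq promoter table (GRCm38.p6). The test was checked on simulated data. Of each other list, at most 3 genes with the highest mean level were named, plus the 5 genes most correlated with the members; Hoxc13 and Msx2 were named because they were called. The members and lists were chosen with earlier results of these data known. Alternatives covered background correction, scaling, filters, blocks, the fit and leaving out each sample.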

Additional observations from a re-analysis of the deposited data

Results flagged for a closer look

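The difference of Krt34 from wild type was not the same in the normal skin of both title numbers: it was 3.08 larger on the log2 scale in Mutant113 than in Mutant097, and the test of that difference itself passed the threshold (adjusted p = 0.0435, limma). All other members missed it, with differences from 0.32 for Krt35 to 2.82 for Krt33b. Krt39, a type I hair keratin that is not a member, was called higher in Mutant113 too (adjusted p = 0.0438, limma), as were 0.158% of all probes. It was below detection in wild type and in normal skin of Mutant097, so its difference is a bound of at least 4.13-fold. Normal skin of Mutant097 was not above wild type for Krt39. As given above, the call of Krt34 was not kept when any mutant normal or wild type sample was left out.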

How the results depend on the processing

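With 1 mean per title number and group, 0 genes were called in mutant normal against wild type skin and 0 in hair loss against wild type. Leaving out each sample in turn gave 0 to 8 calls in both comparisons, and 0 to 1 for Mutant113 against Mutant097 in normal skin, where normexp called 4 and quantile normalization 2. Both settings also called more of all probes there, with the shares given above. The lesion difference between the numbers went from 0 calls to 5 with normexp, which called 0.944% of all probes. Without 1 sample, the difference of Krt35 between hair loss and mutant normal skin ran from -0.0081 to 1.59, and that between the numbers in normal skin from -0.29 to 0.92. Title number as a replicate block left 0 calls for hair loss against mutant normal skin; with wild type it could not be estimated. With slide row as a block, hair loss is set against the Mutant097 normal samples alone and wild type against those of Mutant113 alone; it left 0 calls for hair loss against normal skin, with a difference of 3.37 for Krt34. Of 160 gene results in mutant normal against wild type skin, 127 kept their side of the threshold, and of 160 in hair loss against wild type 126 did; 0 changed sign in either. Normexp used the median signal and was added after the files were seen. The lesion difference between the numbers could not be fitted without either hair loss sample. Causes were not tested. Signal over background limits every wild type value but those of Krt31 and 1 of Krt35, and 2 to 4 arrays per group limit the rest.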
